A study of Mus musculus with 27 samples.

Results

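CD8 T cells that overexpressed let-7 (let-7Tg) were compared with wild type (WT) cells 12 h after activation. The 6 libraries, 3 per genotype, were chosen by the genotype and the activation time in their labels, out of 27 libraries of the whole series. RNA-seq was performed on P14 CD8 T cells of WT, lin28Tg and let-7Tg mice as naive cells, after 12 h of activation and as day 5 cytotoxic T lymphocytes (CTLs), and each genotype has 3 biological replicates at each stage. All P14 cells recognise gp33, a peptide of LCMV, through their transgenic receptor, and the comparison addresses how a forced supply of let-7 changes the transcriptome early after stimulation. The genotypes are given as WT P14+, Let-7Tg P14+ and Lin28bTg P14+. The transgenic P14 mice were kept on a Rag2-/- background, and that background is not stated separately for the WT mice. In let-7Tg mice a let-7g transgene sits in the Col1a1 locus and is switched on by doxycycline. Mice of every genotype, controls included, drank doxycycline before the cells were taken. All 12 h cultures contained 2 μg/ml doxycycline, so WT and let-7Tg did not differ in the drug. Whether they differed in background beside the transgene cannot be told from the sources used here. Cells from lymph nodes were stimulated with anti-CD3 at 2 μg/ml and anti-CD28 at 5 μg/ml. No age or sex of the mice is given in the labels.

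The let-7 microRNAs (miRNAs) are small RNAs that guide Argonaute proteins to complementary sites, mostly in the 3′ untranslated region (UTR) of mRNAs, where they lower translation and mRNA stability. Bases 2 to 8 of the miRNA, the seed, decide most of the pairing. In T cells let-7 is high in the naive state and falls after T cell receptor (TCR) stimulation, and it is known for restraining the cell cycle, Myc and effector genes. Lin28 proteins block the maturation of let-7 precursors. The tables hold gene level RNA and no mature miRNA, so the amount of let-7 itself was not measured here.

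The transgene product and 2 endogenous relatives are shown to make the shared seed visible, with the seed in capitals (RefSeq, GRCm38.p6). The let-7g sequence maps to chr9:106178846-106178867 on the plus strand, let-7a to chr13:48538239-48538260 on the minus strand and let-7i to chr10:122985698-122985719 on the minus strand.
mmu-let-7g-5p: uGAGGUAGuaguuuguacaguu
mmu-let-7a-5p: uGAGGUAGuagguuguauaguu
mmu-let-7i-5p: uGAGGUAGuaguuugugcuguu
Entries of the family in the reference were kept by the seed GAGGUAG, so the 12 kept share it by choice. Where their sequences differ, they do so outside it. A site in an mRNA is the reverse complement. It was searched on the mRNA strand as CTACCTCA (8mer), CTACCTC (7mer-m8) or TACCTCA (7mer-A1), and a gene was placed in the best class that its 3′ UTR held, since the 8mer contains both 7mers. Of 11228 tested genes with a 3′ UTR read, 3.62% had an 8mer as their best site, 6.92% a 7mer-m8 and 6.43% a 7mer-A1, and 83.0% had none.

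The sites below belong to the 6 downregulated genes with the smallest p that held an 8mer. Each line runs 5′ to 3′ on the mRNA strand, with the match to the seed in capitals, in GRCm38 coordinates.
1700017B05Rik, chr9:57253676-57253697, minus strand: taagacaacacagcCTACCTCA
Arid3a, chr10:79953896-79953917, plus strand: aggcaagtttctttCTACCTCA
Cdc34, chr10:79688113-79688134, plus strand: cctcaggcgacagaCTACCTCA
Ddx19a, chr8:110975904-110975925, minus strand: tgagtagagactacCTACCTCA
Efhd2, chr4:141859170-141859191, minus strand: gccactgtgcgaatCTACCTCA
Prkar2a, chr9:108750102-108750123, plus strand: taagaattattgtgCTACCTCA
The bases before the match differ between the 6 genes. A match describes the sequence and does not show that let-7 binds there.

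Each library held between 14102910 and 16761374 counted reads, and levels are given as FPKM, which are counts scaled by gene length and by the library total. At these depths 10 reads on a gene of 2 kb equal 0.298 to 0.355 FPKM. Replicate 2 of both genotypes stood apart from replicates 1 and 3 along the second principal component, which held 17.4% of the variance among the 9 libraries of 12 h. The scores on it were 8.53 and 31.13 for replicate 2 of WT and let-7Tg, and lay between -21.03 and -7.49 for the other 4 libraries. The first component (55.7%) put the let-7Tg libraries at -31.53 to -28.36, the WT libraries at -7.26 to -2.38 and the lin28Tg libraries at 28.20 to 40.17. WT replicate 1 lay nearer to let-7Tg replicate 1 (distance 35.5 over log2 levels) than to WT replicate 2 (38.8). CD8 T cell markers summed to 3013 to 3071 FPKM in WT and 2573 to 3239 FPKM in let-7Tg, with Cd8a at 121 to 173 and 99.8 to 141 FPKM (adjusted p = 0.282). With the replicate number as a block the adjusted p of Cd8a was 0.200 in the fit of 9 libraries and 0.0147 in a fit of the 6 libraries. Ms4a1, which marks B cells, was at 0 to 0.0218 FPKM in the 6 libraries.

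**Figure D1:**
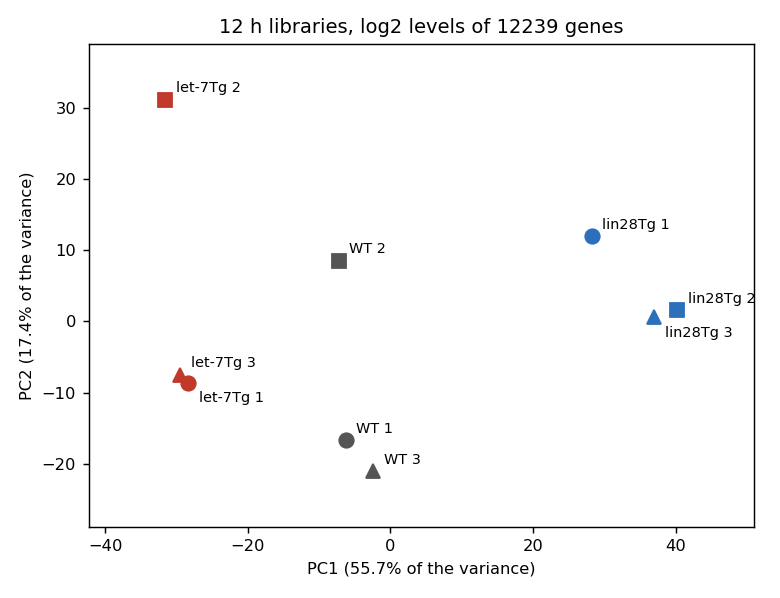
Scores of the 9 libraries of 12 h on the first and second principal component of log2 levels of 12239 genes, with colour for genotype and symbol for replicate number. The let-7Tg libraries lie left of the WT libraries, and replicate 2 of each of these genotypes lies above replicates 1 and 3.

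Of 35275 genes in the table, 12239 had enough reads to be tested with limma on log2 of scaled FPKM plus 0.5. At a Benjamini-Hochberg adjusted p under 0.05, 396 genes (3.24%) were called, 167 of them upregulated in let-7Tg cells (1.36%) and 229 downregulated (1.87%). The differences were modest. The median log2 fold change was 0.64 among the upregulated and -0.57 among the downregulated genes, against 0.00 over all tested genes, 69 called genes changed by more than 1 on the log2 scale (29 up and 40 down), and 135 changed by less than 0.5. In all 396 called genes the 3 values of a genotype did not overlap those of the other, which was also the case in 25.2% of all tested genes. Same-numbered WT and let-7Tg libraries deviated together. With the replicate number as a block in the fit of all 9 libraries 242 genes were called (98 up and 144 down, 220 of them among the 396), and in a fit of the 6 libraries alone, added after seeing the data, 1466 were called (600 up and 866 down, with 393 of the 396 among them). The number of calls rested on single libraries. Without WT replicate 3 only Cdc34, Col1a1, Eif3j2, Esd and Traj5 were called, while 395 of 395 called genes that could still be tested kept their direction with an unadjusted p under 0.05. These genes were picked on the same values without overlap, so their direction could hardly turn. The number of calls was 43 when WT replicate 1 was left out and 60 when WT replicate 2 was, and leaving out let-7Tg replicates 1, 2 or 3 gave 697, 127 and 77 calls. It was 137 without replicate 2 of both genotypes.

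**Figure D2:**
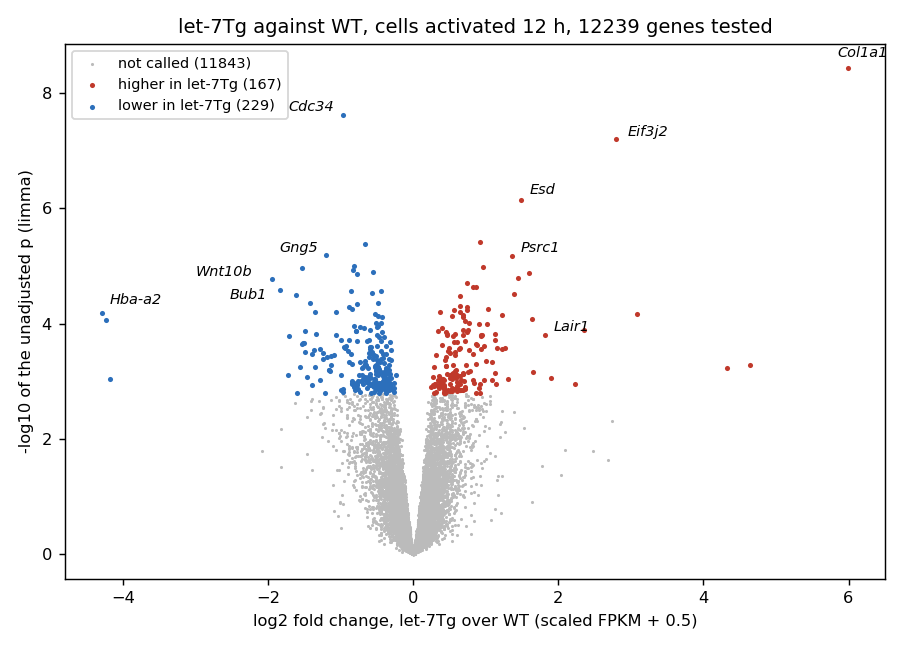
Volcano plot of the 12239 tested genes, with the log2 fold change of let-7Tg over WT on the x axis and -log10 of the unadjusted limma p on the y axis. The 167 upregulated and 229 downregulated genes are coloured, and Col1a1, Eif3j2, Esd and Cdc34 lie furthest up.

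Col1a1, which encodes a chain of type I collagen and is the locus that holds the transgene (chr11:94936224-94953042), had the largest change. Its level was 0.0796, 0.10 and 0.0716 FPKM in WT and 21.5, 62.8 and 37.7 FPKM in let-7Tg replicates 1 to 3. The let-7Tg values were all far above the WT values, with replicate 2 highest. The log2 fold change was 5.99 ± 0.30 (SE, adjusted p = 4.63e-05), against 0.09 in lin28Tg over WT (adjusted p = 0.886). The partner collagen Col1a2 stayed at 0 to 0.0562 FPKM and Col3a1 at 0 to 0.0363 FPKM in the same 6 libraries. Whether the Col1a1 reads come from the gene or from the inserted cassette was not tested.

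Genes around the insertion were counted apart. Within 10 Mb of Col1a1 19 of 235 tested genes were called (8.09%; 9 up and 10 down), compared with 23 of 818 on the rest of chromosome 11 (2.81%) and 354 of 11125 on other chromosomes (3.18%). In lin28Tg over WT the shares were 8.94% within 10 Mb and 8.53% on other chromosomes. Within 5 Mb 8 of 103 genes were called (7.77%). Shares of genes were not tested against each other. The 9 upregulated genes were Col1a1, Rapgefl1, Ikzf3, Acbd4, Nbr1, Acsf2, Vezf1, Arf2 and Cltc. Rapgefl1, a guanine nucleotide exchange factor like protein, was at 0.208 to 0.351 FPKM in WT and 1.18 to 2.19 FPKM in let-7Tg (log2 fold change 1.44 ± 0.18, adjusted p = 0.0123). Ikzf3, the lymphoid transcription factor Aiolos, was at 64.5, 67.7 and 49.1 FPKM in WT and 93.5, 138 and 90.1 FPKM in let-7Tg (0.78 ± 0.16, adjusted p = 0.0401, 0.0529 with the block). Nbr1, an autophagy receptor, was 0.65 ± 0.10 higher on the log2 scale (adjusted p = 0.0188). The 10 downregulated genes included Top2a, Kif18b, Brca1, Kcnh4, Rsad1, Stat5a, Trim25, Dhx8 and Lrrc59, of which Top2a, Kif18b and Brca1 act in the cell cycle or DNA repair. With the block the adjusted p was over 0.05 for Ikzf3, Acsf2 (0.0563), Vezf1 (0.0704), Arf2 (0.0694), Cltc (0.0534), Brca1 (0.0569), Kcnh4 (0.0681), Stat5a (0.0565), Trim25 (0.0569) and Dhx8 (0.0537).

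Beside Col1a1, the most significantly upregulated genes coded for proteins of varied function. Esd, an esterase that acts on S-formylglutathione (chr14:74732297-74750765), was at 32.2, 26.9 and 31.7 FPKM in WT and 85.0, 96.1 and 79.9 FPKM in let-7Tg. Every let-7Tg value was above every WT value, and the log2 fold change was 1.48 ± 0.13 (adjusted p = 0.00218). Psrc1, a microtubule-associated protein of the spindle, rose from 4.96 to 6.51 FPKM in WT to 12.8 to 19.4 FPKM (1.36 ± 0.15, adjusted p = 0.0102). Dnase2a, a lysosomal DNase, rose from 1.72 to 1.83 FPKM to 3.58 to 4.49 FPKM (0.96 ± 0.12, adjusted p = 0.0112). The segment Traj5 of the TCR alpha locus rose from 3.43 to 6.17 FPKM to 12.2 to 18 FPKM (1.60 ± 0.20, adjusted p = 0.0112). Eif3j2 was at 0.456 to 0.577 FPKM in WT and 5.12 to 8.47 FPKM in let-7Tg (2.80 ± 0.19, adjusted p = 2.62e-04). Eif3j2 is a near copy of Eif3j1, which was at 61.3 to 65.2 FPKM in WT and 35.3 to 52.6 FPKM in let-7Tg and did not pass the test (-0.61, adjusted p = 0.0516, 0.0576 with the block in 9 libraries and 0.0157 in the block fit of the 6 libraries), so that the division of reads between both is uncertain. The 3′ UTRs of Esd, Psrc1, Dnase2a and Eif3j2 held no let-7 seed match, and Traj5 has no UTR. In lin28Tg over WT their log2 fold changes lay between -0.62 and 0.32.

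Among the most significantly downregulated genes, Cdc34, a ubiquitin-conjugating enzyme of the G1 to S transition and a classical let-7 target (chr10:79682195-79688398), was the clearest. Its level was 133, 134 and 136 FPKM in WT and 65.4, 71.7 and 71.6 FPKM in let-7Tg, 1.96-fold lower (-0.97 ± 0.06, adjusted p = 1.48e-04). The genotypes did not overlap, and the call held in all 17 alternative analyses. In lin28Tg cells Cdc34 was at 236 ± 8.30 FPKM (SD, n = 3), 0.80 above WT on the log2 scale. Gng5, a G protein gamma subunit, fell from 52.4 to 56.7 FPKM to 19.8 to 29.7 FPKM (-1.20 ± 0.14, adjusted p = 0.0102). Nme6, a nucleoside diphosphate kinase family member, fell from 25.6 to 27.4 FPKM to 13.9 to 16.6 FPKM (-0.83 ± 0.10, adjusted p = 0.0112). Gng5 and Nme6 held a 7mer-m8, and Dusp7, a MAP kinase phosphatase, held a 7mer-A1 and fell from 37.0 to 39.8 FPKM to 23 to 26.8 FPKM (-0.67 ± 0.07, adjusted p = 0.00848). The other 4 of the 8 most significant downregulated genes held no match. Cdk8, the kinase of the Mediator complex, was at 65.2, 65.4 and 65.7 FPKM in WT and 43.5, 34.2 and 35.6 FPKM in let-7Tg (-0.82 ± 0.10, adjusted p = 0.0112). Cdkn2d, a CDK4 and CDK6 inhibitor of the INK4 family, fell by 0.78 and Lrrc32, the surface docking receptor of latent TGF-beta, by 1.53 on the log2 scale, each with an adjusted p = 0.0112. Lrrc32 was low, at 1.86 to 2.40 FPKM in WT and 0.258 to 0.578 FPKM in let-7Tg.

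**Figure D3:**
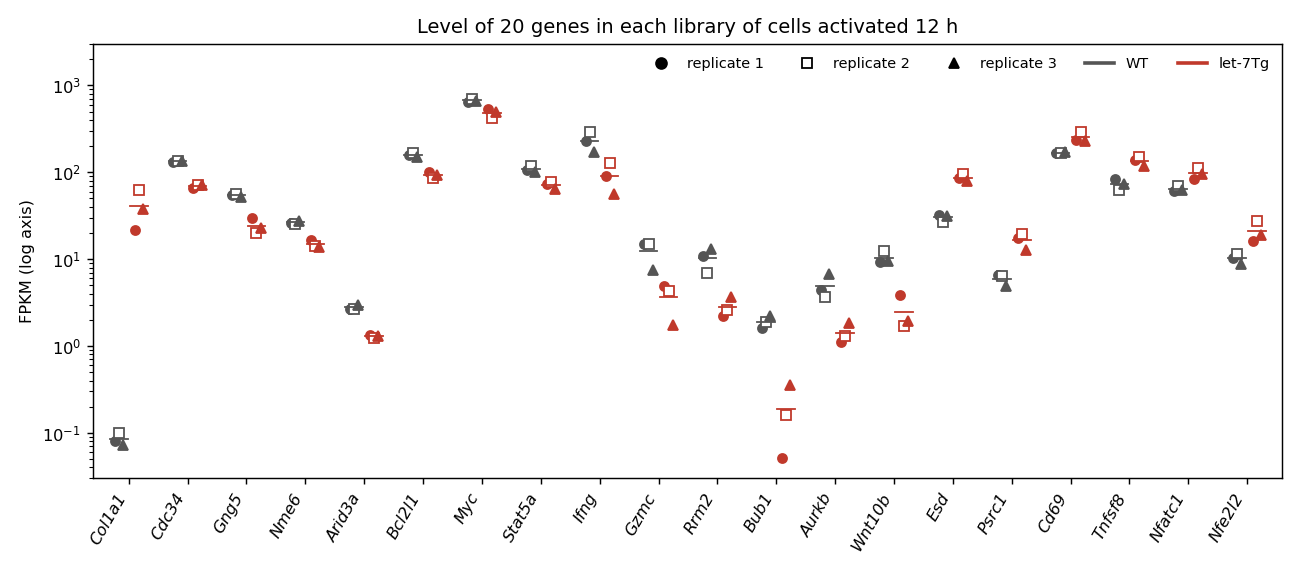
FPKM of 20 genes in each of the 6 libraries on a log axis, with gray for WT, red for let-7Tg, a symbol per replicate number and a bar at the mean. The 3 let-7Tg values lie on one side of the 3 WT values for all 20 genes, from Col1a1 (0.0716 to 0.10 against 21.5 to 62.8 FPKM) to Myc (647 to 702 against 424 to 531 FPKM).

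Genes were then counted by their best let-7 seed match, with no test between the classes. Of 407 tested genes with an 8mer 26 were downregulated (6.39%) and 3 upregulated, of 777 with a 7mer-m8 41 (5.28%) and 7, of 722 with a 7mer-A1 23 (3.19%) and 10, and of 9322 without a match 135 (1.45%) and 138. The median log2 fold changes were small, at -0.060, -0.051 and -0.048 for the 3 classes with a match and 0.007 without one. Of 225 downregulated genes with a UTR read 90 held a match, and of 158 upregulated genes 20 did. Genes with a match had longer 3′ UTRs, with a median of 2342 to 2549 bases by class against 946 bases. Among genes with a 3′ UTR of at least 2000 bases, a limit added after seeing the data, 4.53%, 3.77% and 2.30% of the 3 classes were downregulated against 1.16% without a match, and the medians were -0.042, -0.025 and -0.032 against 0.038. These classes differ in UTR length, and the part of other features of long UTRs was not tested. In the block fit of the 6 libraries 15.6%, 15.3% and 9.91% of the classes were downregulated against 6.61%. Without WT replicate 3 the number of downregulated genes with a match fell from 90 to 1, and without let-7Tg replicate 1 it was 161. In lin28Tg over WT, which shares the WT libraries, 44 of the 407 genes with an 8mer were upregulated (10.8%) and 5 downregulated, against 602 (6.46%) and 218 of the 9322 genes without a match.

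**Figure D4:**
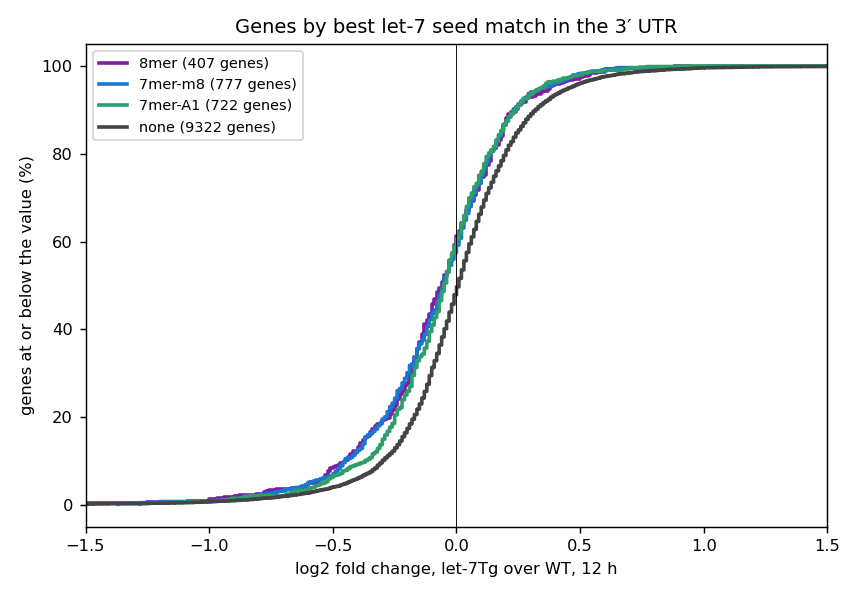
Cumulative share of genes (y axis, percent) at or below a log2 fold change of let-7Tg over WT (x axis, shown from -1.5 to 1.5), by best seed match in the 3′ UTR. The curves of the 407, 777 and 722 genes with a match lie left of the curve of the 9322 genes without one, with medians of -0.060, -0.051 and -0.048 against 0.007.

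Of the 6 genes whose 8mers are printed above, Cdc34 and Arid3a had the largest changes. Arid3a, a DNA-binding protein of B cell and stem cell programs, was at 2.68, 2.66 and 2.98 FPKM in WT and 1.35, 1.24 and 1.31 FPKM in let-7Tg (-0.88 ± 0.13, adjusted p = 0.0188), and at 10.1 ± 1.18 FPKM (SD, n = 3) in lin28Tg. Its UTR of 3082 bases also held a 7mer-m8 and a pair of 7mer-A1 sites. 1700017B05Rik fell from 10.4 to 12.8 FPKM to 5.56 to 7.20 FPKM (-0.77 ± 0.11, adjusted p = 0.0186). Prkar2a, a regulatory subunit of protein kinase A, fell by 0.53, Ddx19a, an RNA helicase of mRNA export, by 0.51 and Efhd2, a calcium-binding adaptor, by 0.48 on the log2 scale. The values of the genotypes did not overlap for any of the 6. All 6 stayed called with the block, with adjusted p from 0.00159 to 0.0402.

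A list of 50 genes known as let-7 targets in other systems was written by hand. Of 47 tested members 12 were downregulated and 1 upregulated, 35 were below 0, and the median log2 fold change was -0.30, against 1.87% and 1.36% called and a median of 0.00 over all genes. The mean log2 level of the list lay 0.31, 0.32 and 0.37 below the WT mean in let-7Tg replicates 1 to 3 and 0.00 from it in each WT library. Beside Cdc34, Gng5, Nme6 and Arid3a the downregulated members were Rrm2, Plagl2, Cdc25a, Bcl2l1, Cbx2, E2f6, Myc and Arid3b. All but Myc held a match, and 28 other members with a match were not called. Cdc25a, the phosphatase that activates CDK2 at S phase entry, fell from 24.5 to 29.2 FPKM to 13.6 to 17.4 FPKM (-0.81 ± 0.13, adjusted p = 0.0223). Plagl2, a zinc finger transcription factor, fell from 39.7 to 45.8 FPKM to 21.2 to 28 FPKM (-0.85 ± 0.12, adjusted p = 0.0188). E2f6 fell by 0.51 ± 0.10 (adjusted p = 0.0295, 0.0534 with the block) and the Polycomb subunit Cbx2 by 0.62 ± 0.13 (0.0435, 0.0681 with the block). Hmga2, a chromatin protein with several let-7 sites in many species, was at 0 in all 6 libraries. Plagl2, Arid3b and Hmga2 are named after their values were seen. Of the 13 calls, Cdc34 alone was made without WT replicate 3 (all 13 at an unadjusted p under 0.05).

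Cell cycle genes were lower in let-7Tg cells, and most of these differences did not pass the test. Of 57 genes of mitosis 12 were downregulated, against 1.87% of all tested genes, and none was upregulated, 53 were below 0, and the median log2 fold change was -0.74. All 60 genes of DNA replication were below 0, with a median of -0.40, and 4 passed the test, all downregulated. In a list of G1 cyclins, CDKs and E2F factors 4 of 33 were downregulated and the median was -0.19. Bub1, a kinase of the spindle checkpoint, was at 1.60, 1.88 and 2.21 FPKM in WT and 0.0509, 0.159 and 0.351 FPKM in let-7Tg (-1.83 ± 0.24, adjusted p = 0.0145). Aurkb, the Aurora kinase of the chromosomal passenger complex, fell from 3.63 to 6.69 FPKM to 1.12 to 1.82 FPKM (-1.49 ± 0.24, adjusted p = 0.0225). Ccna2, the cyclin of S and G2 phase, was at 1.66 to 2.71 FPKM and 0.191 to 0.606 FPKM (-1.50 ± 0.26, adjusted p = 0.0254), and Kif2c, a microtubule depolymerase, at 0.729 to 1.53 FPKM and 0.0532 to 0.169 FPKM (-1.36 ± 0.20, adjusted p = 0.0188). Rrm2, the regulated subunit of ribonucleotide reductase, held an 8mer and was at 10.8, 6.93 and 13.2 FPKM in WT and 2.22, 2.60 and 3.66 FPKM in let-7Tg (-1.71 ± 0.29, adjusted p = 0.0226). Clspn, the replication checkpoint adaptor, fell by 1.56 and Top2a, topoisomerase II alpha, by 1.47 on the log2 scale (adjusted p = 0.0373 and 0.0424). Pcna, the sliding clamp of replication, was at 391 to 488 FPKM and 303 to 404 FPKM and was not called (-0.33, adjusted p = 0.241, 0.0219 in the block fit of the 6 libraries).

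Libraries of a genotype differed in these genes. The mean log2 level of the replication list, relative to the WT mean, was 0.08, -0.33 and 0.26 in WT and -0.58, -0.86 and -0.17 in let-7Tg replicates 1 to 3, so that the genotypes overlapped, replicate 2 was lowest in both and let-7Tg was lower within each number. For mitosis the values were -0.07, -0.15 and 0.22 against -0.75, -0.88 and -0.60, without overlap. With the block 12 mitosis and 5 replication genes were downregulated in the fit of 9 libraries, and 38 of 57 and 36 of 60 in the fit of the 6 libraries, where 7.35% of all tested genes were. Without WT replicate 3 none of the 12 mitosis calls was made by limma, with all 12 at an unadjusted p under 0.05, and voom on all libraries called 1 of the 12. Fewer cycling cells and less RNA of these genes per cell cannot be told apart in bulk libraries. In lin28Tg over WT, where 8.53% of genes on chromosomes other than 11 were called, 51 of the 57 mitosis genes were upregulated, with a median of 1.60. Cdkn1a, which encodes the CDK inhibitor p21 and is named after its values were seen, was at 16.9, 36.4 and 16.3 FPKM in WT and 40.2, 90.7 and 37.8 FPKM in let-7Tg. All let-7Tg values lay above the WT values, the nearest being 37.8 and 36.4 FPKM, and the adjusted p was 0.0791, 0.0429 with the block in 9 libraries and 5.49e-04 in the 6 libraries.

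**Figure D5:**
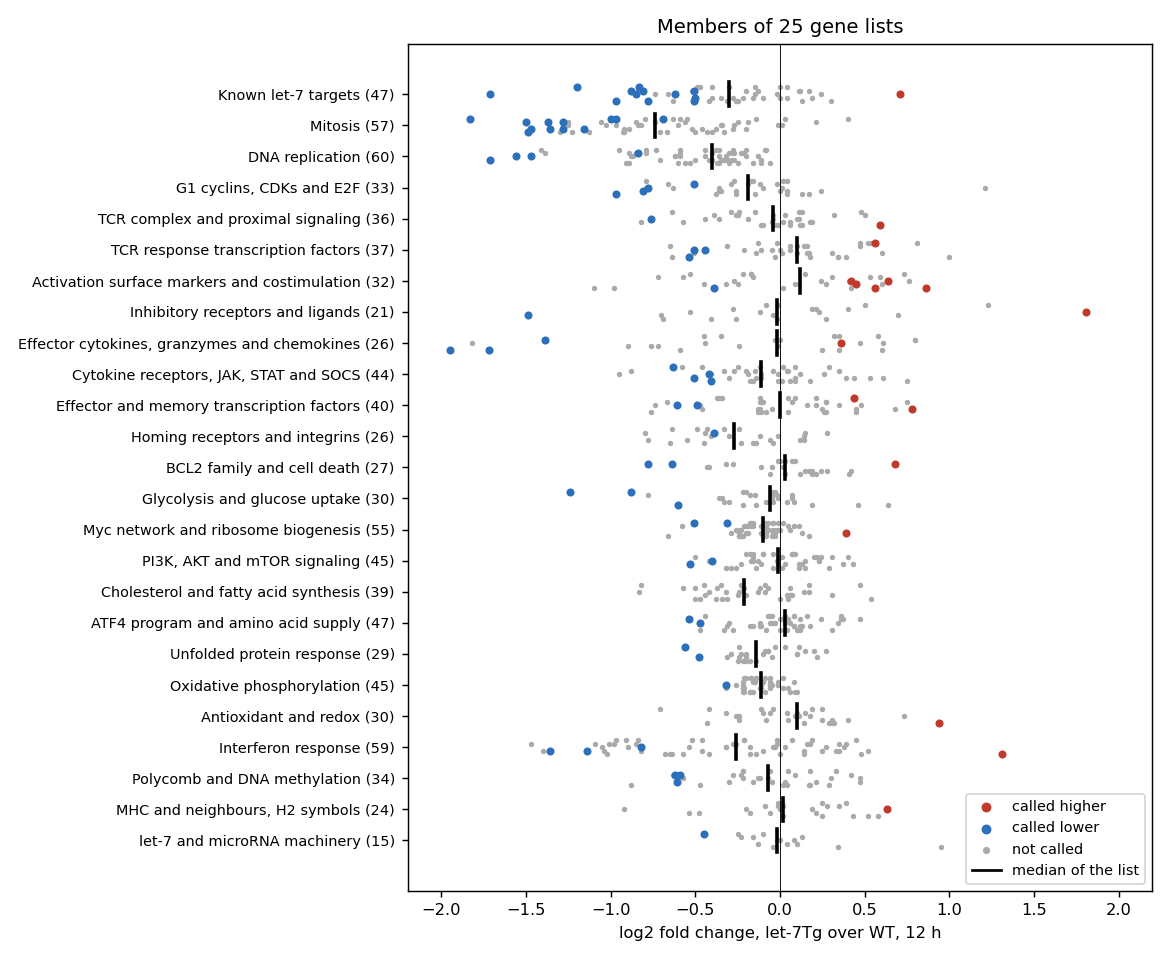
Log2 fold changes of let-7Tg over WT (x axis) for the tested members of 25 gene lists, 1 point per gene, with called genes in red (higher) or blue (lower) and the median as a bar. The medians of mitosis (-0.74), DNA replication (-0.40) and known let-7 targets (-0.30) lie furthest left, and activation surface markers hold 5 of the red points.

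Genes of the TCR response were counted against the 3.24% called of all tested genes. Of 36 genes of the TCR complex and proximal signaling 1 was upregulated and 1 downregulated (median -0.04), and of 37 transcription factors of the response 1 was upregulated and 3 were downregulated (median 0.10). Cd247, the zeta chain of the receptor, was at 34.1, 28.1 and 23.6 FPKM in WT and 41.3, 49.9 and 40.0 FPKM in let-7Tg (0.59 ± 0.12, adjusted p = 0.0424), and Ubash3a, a phosphatase that dampens TCR signals and held an 8mer, fell from 69.6 to 75.7 FPKM to 34.5 to 58.6 FPKM (-0.76 ± 0.17, adjusted p = 0.0468). Nfatc1, a calcium-dependent factor of early T cell activation, rose from 61.5 to 69.0 FPKM to 84.3 to 111 FPKM (0.56 ± 0.10, adjusted p = 0.0253). Myc, the driver of growth in activated T cells (chr15:61985391-61990374), was at 647, 702 and 667 FPKM in WT and 531, 424 and 489 FPKM in let-7Tg, 1.43-fold lower (-0.51 ± 0.10, adjusted p = 0.0388). Its 3′ UTR of 442 bases held no match. The AP-1 subunit Jund fell by 0.54 and the NF-κB inhibitor Nfkbib by 0.44 on the log2 scale (adjusted p = 0.0291 and 0.0282). Bhlhe40, a factor of cytokine production, was at 47.9 to 73.5 FPKM in WT and 56.9 to 105 FPKM in let-7Tg and was not called (adjusted p = 0.722).

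Of 32 surface markers of activation and costimulation 5 were upregulated and 1 was downregulated, with a median of 0.12, against 1.36% and 1.87% of all genes. Cd69, the early activation marker that retains cells in tissue, was at 166, 167 and 169 FPKM in WT and 237, 291 and 231 FPKM in let-7Tg (0.56 ± 0.08, adjusted p = 0.0188). The 3 WT values were nearly the same and all let-7Tg values lay above them. Tnfsf8, the CD30 ligand, rose from 62.7 to 83.2 FPKM to 118 to 149 FPKM (0.86 ± 0.11, adjusted p = 0.0143), and the costimulatory receptor Cd27 rose from 357 to 394 FPKM to 493 to 581 FPKM (0.45 ± 0.07, adjusted p = 0.0225). The TNF receptor Tnfrsf1a was 0.42 higher (adjusted p = 0.0468, 0.0546 with the block). Cd44, the adhesion receptor that marks antigen-experienced cells, was 0.39 lower on the log2 scale (adjusted p = 0.0468), at 60.2 to 72.0 FPKM in WT and 50.9 to 54.0 FPKM in let-7Tg. In lin28Tg over WT Cd69, Tnfsf8 and Cd27 were lower by 0.61, 0.56 and 0.50 and Cd44 was higher by 0.91. Among 21 inhibitory receptors and ligands Lair1, a collagen-binding inhibitory receptor, rose from 0.264 to 0.601 FPKM to 2.27 to 4.03 FPKM (1.81 ± 0.30, adjusted p = 0.0225). Klrc1, the NKG2A receptor, fell from 22.3 to 30.1 FPKM to 6.07 to 13.3 FPKM (-1.49 ± 0.27, adjusted p = 0.0288). None of the 6 surface marker calls and neither of these 2 was made without WT replicate 3, with all 8 at an unadjusted p under 0.05.

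Of 26 tested effector cytokines, granzymes and chemokines 3 were downregulated and 1 was upregulated, with a median of -0.02, against 1.87% and 1.36% of all genes. The mean log2 level of the list relative to the WT mean was -0.18, 0.36 and -0.18 in WT and -0.42, 0.13 and -0.38 in let-7Tg, so that the genotypes overlapped and let-7Tg was lower within each number. Ifng, the signature cytokine of CD8 T cells (chr10:118441046-118445892), was at 227, 294 and 169 FPKM in WT and 90.5, 127 and 56.7 FPKM in let-7Tg (-1.39 ± 0.26, adjusted p = 0.0291). Replicate 2 was highest and replicate 3 lowest in both genotypes, and within each number let-7Tg was below WT (adjusted p = 5.49e-04 in the block fit of the 6 libraries). In lin28Tg cells Ifng was at 1483 ± 178 FPKM (SD, n = 3). Gzmc, granzyme C, was at 15, 14.8 and 7.58 FPKM in WT and 4.86, 4.28 and 1.73 FPKM in let-7Tg (-1.72 ± 0.35, adjusted p = 0.0411). Wnt10b, a Wnt ligand, fell from 9.24 to 12.3 FPKM to 1.68 to 3.83 FPKM (-1.95 ± 0.25, adjusted p = 0.0123). Srgn, the proteoglycan of cytotoxic granules, rose by 0.36 ± 0.08 (adjusted p = 0.0461, 0.0629 with the block). Granzyme B and perforin, named after their values were seen, did not pass. Gzmb was at 811, 344 and 729.8 FPKM in WT and 386, 114 and 111 FPKM in let-7Tg (adjusted p = 0.0911, 0.101 with the block in 9 libraries and 0.0120 in the block fit of the 6 libraries). Prf1 was at 60.3, 141 and 75.3 FPKM against 53.4, 67.2 and 41.9 FPKM (adjusted p = 0.200, 0.114 with the block in 9 libraries and 0.0330 in the block fit of the 6). The genotypes overlapped for both genes, and within each number both were lower in let-7Tg. Il2 was at 18.6 to 27.2 FPKM and 11 to 34.8 FPKM (adjusted p = 0.976).

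Of 44 cytokine receptors and members of the JAK, STAT and SOCS families, 4 were downregulated and none upregulated, with a median of -0.11, against 1.87% downregulated of all genes. With the block in 9 libraries 1 was downregulated and 1 upregulated. Stat5a, which transmits IL-2 and IL-7 signals, fell from 102 to 119 FPKM to 63.9 to 76.7 FPKM (-0.63 ± 0.13, adjusted p = 0.0424, 0.0565 with the block), whereas its neighbour Stat5b was at 33.6 to 35.2 FPKM and 31.1 to 41.2 FPKM (-0.01, adjusted p = 0.960). Jak3, the kinase of the common gamma chain, fell from 43.9 to 51.3 FPKM to 34.2 to 37.4 FPKM (-0.42 ± 0.08, adjusted p = 0.0316). The receptor subunit Il4ra fell by 0.41 ± 0.08 (adjusted p = 0.0406, 0.0546 with the block) and Stat4 by 0.51 ± 0.11 (0.0455, 0.0681 with the block). Il12rb2, the IL-12 receptor subunit upstream of Stat4, was at 33.7, 21.1 and 17.7 FPKM in WT and 20.2, 13.3 and 6.34 FPKM in let-7Tg and did not pass (-0.95, adjusted p = 0.237, 0.0127 in the block fit of the 6 libraries). Within each number Il12rb2 was lower in let-7Tg. Il7r, the IL-7 receptor, followed the replicate number and not the genotype, at 2.67, 16.6 and 1.59 FPKM in WT and 2.77, 14.4 and 1.14 FPKM in let-7Tg.

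Transcription factors of effector and memory fate showed 2 calls up and 2 down among 40 (median -0.00), against 1.36% and 1.87% of all tested genes. Id3, an inhibitor of E proteins linked to memory precursors, rose from 67.9 to 80.5 FPKM to 90.4 to 109 FPKM (0.44 ± 0.10, adjusted p = 0.0497, 0.0713 with the block), and Ikzf3 rose as given above. Rbpj, the DNA-binding effector of Notch signaling with a 7mer-m8, fell from 78.8 to 97.8 FPKM to 52.4 to 65.2 FPKM (-0.61 ± 0.11, adjusted p = 0.0290), and the quiescence factor Klf3 fell by 0.49 (0.0338, 0.0579 with the block). Notch2 itself was at 9.53 to 11.6 FPKM and 7.95 to 8.83 FPKM and was not called (-0.34, adjusted p = 0.152). Of 26 homing receptors and integrins Cd44 alone passed, where 3.24% of all tested genes did, and the median was -0.27. Among 27 genes of the BCL2 family and cell death 1 was upregulated and 2 were downregulated (median 0.03), against 1.36% and 1.87% of all tested genes. Bcl2l1, which encodes the survival protein BCL-XL and held an 8mer, was at 156, 168 and 149 FPKM in WT and 102, 84.9 and 92.5 FPKM in let-7Tg, 1.72-fold lower (-0.78 ± 0.14, adjusted p = 0.0251). The pro-apoptotic Bcl2l11 (BIM) was also lower, at 56.8 to 67.9 FPKM and 35.8 to 47.9 FPKM (-0.64 ± 0.14, adjusted p = 0.0465), and the survival gene Bcl2l2 (BCL-W) was higher, at 2.90 to 3.46 FPKM and 5.12 to 6.26 FPKM (0.68 ± 0.11, adjusted p = 0.0225). In lin28Tg over WT Bcl2l1 was higher by 0.91.

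Of 30 genes listed under glycolysis and glucose uptake 3 were downregulated and none upregulated (median -0.06), against 1.87% downregulated of all genes. Of the 3, Slc16a10 carries amino acids and not glucose. The study names Hk2 and Slc16a10 for naive cells of this series, so they are no independent members. Hk2, the inducible hexokinase, was at 99.3, 93.2 and 95.4 FPKM in WT and 73.2, 58.7 and 62.3 FPKM in let-7Tg (-0.60 ± 0.11, adjusted p = 0.0290). Slc16a3, the lactate exporter MCT4, fell from 6.75 to 9.12 FPKM to 3.63 to 5.13 FPKM (-0.88 ± 0.15, adjusted p = 0.0250), and Slc16a10, an aromatic amino acid carrier, from 20.6 to 23.7 FPKM to 6.43 to 12.8 FPKM (-1.24 ± 0.23, adjusted p = 0.0290). Of 55 Myc network and ribosome biogenesis genes 46 were below 0, with a median of -0.10, and Myc and Utp4, a factor of small subunit assembly (-0.31, adjusted p = 0.0458, 0.0723 with the block), were downregulated. Mettl1, the tRNA methyltransferase, was upregulated from 107 to 117 FPKM to 138 to 168 FPKM (0.39 ± 0.06, adjusted p = 0.0225). Of 45 genes of PI3K, AKT and mTOR signaling Phlpp1, an AKT phosphatase (-0.53, adjusted p = 0.0363, 0.0565 with the block), and Eif4ebp2, a translation repressor (-0.40, 0.0411), were downregulated. Eif4e2, a cap-binding protein, fell from 84.5 to 87.6 FPKM to 54.9 to 63.6 FPKM (-0.57 ± 0.08, adjusted p = 0.0148). Eif5a was at 2438 to 2663 FPKM and 2230.5 to 2495 FPKM and the tRNA synthetase Kars at 237 to 251 FPKM and 179 to 223 FPKM, and neither was called (adjusted p = 0.511 and 0.176).

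In the other metabolic lists at most 2 genes passed, where 3.24% of all tested genes did. The 39 genes of cholesterol and fatty acid synthesis had a median of -0.21. The mean log2 level of this list was lowest in replicate 2 of both genotypes, at -0.21 in WT and -0.43 in let-7Tg, and 12 of its genes were downregulated and 1 upregulated in the block fit of the 6 libraries. Of 47 ATF4 program and amino acid supply genes the taurine carrier Slc6a6 (-0.47, adjusted p = 0.0233) and the tRNA synthetase Iars (-0.54, 0.0455, 0.0504 with the block) were downregulated. Of 29 unfolded protein response genes Sdf2l1, a luminal chaperone cofactor (-0.56, 0.0454, 0.0534 with the block), and the disulfide oxidase Ero1l (-0.48, 0.0373) were downregulated. Of 45 oxidative phosphorylation subunits 38 were below 0 with a median of -0.11, and Cox7a2 passed (-0.32, 0.0435, 0.0563 with the block). Nfe2l2, the antioxidant master regulator NRF2, was the 1 call among 30 antioxidant genes and rose from 8.84 to 11.4 FPKM to 16.2 to 27.4 FPKM (0.94 ± 0.16, adjusted p = 0.0225).

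The interferon response list varied between libraries of a genotype. Its mean log2 level relative to the WT mean was -0.16, 0.21 and -0.05 in WT and -0.37, 0.21 and -0.80 in let-7Tg, with replicate 2 highest in both. Of 59 genes 3 were downregulated and 1 upregulated (median -0.26). Over all tested genes 1.87% were downregulated and 1.36% upregulated, which is also the background for the Polycomb, MHC and miRNA machinery counts below. Oas3, a sensor of double-stranded RNA, fell from 4.22 to 5.71 FPKM to 0.766 to 2.68 FPKM (-1.36 ± 0.27, adjusted p = 0.0373), and the antiviral membrane proteins Ifitm3 and Ifitm2 fell by 1.14 and 0.82 on the log2 scale (adjusted p = 0.0362 and 0.0435, 0.0525 with the block for Ifitm2). Iigp1, an interferon-induced GTPase, rose from 2.78 to 3.07 FPKM to 4.61 to 13.7 FPKM (1.31 ± 0.28, adjusted p = 0.0424). Of 34 Polycomb and DNA methylation genes 3 were downregulated (median -0.07). These were Cbx2 and the H3K9 methyltransferases Suv39h1 (-0.59, adjusted p = 0.0424, 0.0534 with the block) and Suv39h2 (-0.61, 0.0435, 0.0657 with the block). Ezh2, the Polycomb methyltransferase with a 7mer-m8, was at 90.7, 66.6 and 81.5 FPKM in WT and 54.7, 54.3 and 53.2 FPKM in let-7Tg. The values did not overlap, and the gene did not pass (-0.57 ± 0.16, adjusted p = 0.0805, 0.0102 in the block fit of the 6 libraries). Of 24 MHC region genes H2-T22, a nonclassical class I gene, rose from 22 to 28.1 FPKM to 32.8 to 46.1 FPKM (0.63 ± 0.11, adjusted p = 0.0273). Of 15 genes of the miRNA machinery Tarbp2, the Dicer partner with a 7mer-m8, was the 1 call and fell from 65.8 to 71.5 FPKM to 50.6 to 51.7 FPKM (-0.45 ± 0.06, adjusted p = 0.0145). Lin28b was below 0.06 FPKM in all 6 libraries, and Lin28a was at 0.

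Markers of other cell types were followed because cells were taken from lymphoid organs. Erythroid markers summed to 26.4, 103 and 42.4 FPKM in WT and 4.62, 1.27 and 1.38 FPKM in let-7Tg, and the globin genes Hba-a1, Hba-a2 and Hbb-bs were 18.2 to 19.5-fold lower in let-7Tg (adjusted p = 0.0202, 0.0188 and 0.0424). None of the 3 was called without WT replicate 2, WT replicate 3, let-7Tg replicate 3 or replicate 2 of both genotypes, and voom called none, with none at an unadjusted p under 0.05. Hba-a1 rested on 55 to 235 reads in WT and 1 to 2 reads in let-7Tg, Hba-a2 on 47 to 192 and 0 to 2, and Hbb-bs on 97 to 509 and 2 to 31. These globin genes have near-identical copies, so reads may be divided between them. Myeloid markers summed to 120.4, 169.9 and 86.6 FPKM in WT and 87.4, 237 and 94.0 FPKM in let-7Tg, with replicate 2 highest in both. Csf1r, which defines macrophages, was below 0.3 FPKM in all 6 libraries. NK cell markers summed to 263 to 339 FPKM and 182 to 284 FPKM, B cell markers to 1.48 to 1.93 FPKM and 1.80 to 1.92 FPKM, and stromal markers to 5.08 to 10.7 FPKM and 6.35 to 10.5 FPKM. Markers of CD4 and regulatory T cells summed to 42.4, 16.1 and 29.8 FPKM in WT and 21.1, 15.1 and 13.8 FPKM in let-7Tg, with Cd4 at 0.378 to 1.12 FPKM and 0.236 to 1.20 FPKM. The part of these markers in the other differences was not tested.

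Lists that the study drew up on these same libraries were also counted, and are no independent evidence of direction. The counts stand beside 1.87% downregulated and 1.36% upregulated over all tested genes. Of 157 genes in the cluster that was raised by lin28Tg and reduced by let-7Tg, 83 were downregulated, and of 47 genes in the opposite cluster 22 were upregulated. In the first cluster 33 of the 48 genes with a seed match and 50 of the 109 without one were downregulated. Of 18 genes that the study marked as let-7 targets in it, 15 were downregulated with a median of -0.61, and all 18 held a match. Golt1b, a Golgi transport protein with an 8mer that is named after its values were seen, was the least changed of the 15, at 26.9 to 27.9 FPKM in WT and 19.5 to 21.2 FPKM in let-7Tg (-0.44 ± 0.08, adjusted p = 0.0251). Of 14 genes named in the text for activated cells 8 were downregulated and none upregulated, and of 7 named for naive cells 4 were downregulated.

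The let-7Tg effect at 12 h was set against the effect at the other stages by the interaction of genotype and stage, over 18 libraries each. Against naive cells 20 of 13874 genes differed (0.144%), 14 with a higher and 6 with a lower log2 fold change at 12 h, and none did so with the block (limma, 1443 at an unadjusted p under 0.05; 3 by voom). Cdk8 was among the 20, with 24.2 ± 0.845 FPKM in naive WT and 27.8 ± 2.78 FPKM in naive let-7Tg cells (SD, n = 3), a difference of 0.14 on the log2 scale, against -0.82 at 12 h (interaction -0.96 ± 0.13, adjusted p = 0.0122, 0.0546 with the block). Nfatc1 went from -0.19 in naive cells to 0.56 at 12 h (0.75 ± 0.12, 0.0205, 0.0647 with the block). Cdc34, in contrast, was already lower in naive let-7Tg cells, at 36.2 ± 3.82 FPKM against 50.8 ± 2.27 FPKM (SD, n = 3; -0.54, adjusted p = 0.0369), as was Gng5, at 27.4 ± 0.808 FPKM against 39.8 ± 2.15 FPKM (-0.58, adjusted p = 0.00692). Myc was lower in naive cells by 0.62 (adjusted p = 0.0139).

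Against day 5 CTLs 91 of 13588 genes differed (0.670%), 31 higher and 60 lower at 12 h, 258 with the block, 1 by voom and 4 without WT replicate 3 at 12 h. Cell cycle genes were among the 60. Bub1 was at 102 ± 21.2 FPKM in WT CTLs and at 103 ± 13.9 FPKM in those of let-7Tg (SD, n = 3; -0.04), against -1.83 at 12 h, and Rrm2 at 259 ± 17.4 FPKM and 288 ± 22.3 FPKM (0.10), against -1.71 at 12 h. The 57 mitosis genes had a median of 0.11 at day 5. Bcl2l1 was at 36.9 ± 5.35 FPKM and 36.8 ± 5.08 FPKM at day 5 and Cdc34 at 75.3 ± 7.64 FPKM and 54.0 ± 10.9 FPKM (-0.54, adjusted p = 0.225). Wnt10b was lower at day 5 too, by 3.06 on the log2 scale (adjusted p = 0.0233). Col1a1 was higher in let-7Tg at each stage, at 18.7 ± 8.27 FPKM against 1.31 ± 0.204 FPKM in naive cells and 13.3 ± 4.36 FPKM against 0.270 ± 0.166 FPKM in CTLs (SD, n = 3). The known let-7 targets had a median of -0.11 in naive cells and -0.16 at day 5, with 4 and 1 genes downregulated. Over all tested genes 84 of 13277 were downregulated in naive cells and 46 of 13030 at day 5. In naive cells 0.926% of genes with an 8mer and 0.552% of those without a match were downregulated. At day 5 these shares were 0.234% and 0.412%, and 3 genes with an 8mer (0.703%) were upregulated. The 8mer shares rest on few calls, 4 of 432 genes in naive cells and 1 of 427 at day 5. The median log2 fold change of genes with an 8mer was -0.052 in naive cells and -0.043 at day 5, against -0.060 at 12 h. Without a match the medians were -0.001, -0.007 and 0.007.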

How the data were processed

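RNA of P14 CD8 T cells was sequenced by a company after TRIzol extraction. Per the labels, the authors aligned reads with TopHat2 2.0.9 and Bowtie2 2.0.6 and counted them per gene with HTSeq 0.6.1 on GRCm38 (mm10). The annotation release is not given in the sources used here. The authors deposited 1 table per stage with each library's level as FPKM, which corrects for gene length and library total but not for composition. Columns of group mean counts, and of the authors' DESeq2 fold changes, p-values and heatmap clusters, were not used. All 462839 FPKM values above 0 in 25144 genes (100.0%) were whole multiples of 1 read, so depths are known.

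Computed here: FPKM of the 9 libraries of 12 h was scaled by trimmed means of log ratios (30% of ratios and 5% of levels trimmed), and log2(FPKM + 0.5) was fitted by limma 3.58.1 in R 4.3.3 with a genotype term and an intensity trend. SE is that of the fit, and fold changes are on the log2(value + 0.5) scale, which understates those of low genes. Tested genes had the equivalent of 10 reads in at least 3 libraries and 15 reads in all, so that a gene could pass through 1 genotype. Benjamini-Hochberg adjusted p under 0.05 over all tested genes is a call, and downregulated, upregulated, rose and fell are used of called genes. Replicates are called biological by the study, and p-values cover the spread between these samples. Printed levels are unscaled FPKM, and voom on the recovered reads, an alternative, called 347 genes (161 up and 186 down, 303 of them among the 396). Steps outside R used Python 3.11.15. The script was tested on simulated data.

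Same-numbered WT and let-7Tg libraries of 12 h correlated in their deviations from the group means at 0.24, 0.55 and 0.43, all over 0.1 and each the highest of its library, so the numbers pair these libraries. Those of WT and lin28Tg gave -0.25, -0.26 and 0.06. Same-numbered WT and let-7Tg libraries gave 0.56, 0.53 and 0.71 at day 5 and 0.47, 0.21 and 0.06 in naive cells. Naive WT replicate 3 gave 0.29 with let-7Tg replicate 2, so the numbers do not pair all naive libraries. The block of the interaction with naive cells uses these numbers all the same. The numbers come from the labels, which do not say what they mark. For genes named at 12 h, a blocked value is printed where the block in 9 libraries, or for genes not called that in 6, changes the call. The block fit of 6 was added after seeing the data and called 1466 genes, against 242 with the block in 9.

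Gene positions and 3′ UTRs (longest coding transcript) come from GENCODE M21 on GRCm38, which held 34490 of the 35275 gene IDs. miRNA sequences come from RefSeq, GRCm38.p6. Genes named follow a rule: genes the study names in its text for activated or naive cells, the 8 called genes of smallest p in each direction without overlap, up to 4 called members of each list, or the first members as written until 2 are named, called genes within 10 Mb of Col1a1, the 6 downregulated 8mer genes of smallest p, and the 4 genes of smallest p in each direction per interaction. The members, lists and this rule were chosen with earlier results of these data known. A few genes that the rule names are not reported here.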

Additional observations from a re-analysis of the deposited data

Results flagged for a closer look

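The let-7Tg effect differed between 12 h and another stage by the interaction test (limma, adjusted p under 0.05) in 33 named cases, given here as the log2 fold change at 12 h minus that at the other stage. Against naive cells the difference was -0.96 for Cdk8, 2.86 for Col1a1, -1.36 for Endou, 1.72 for Gm10499, -1.60 for Lrrc32, 0.71 for Mettl1, 0.75 for Nfatc1, 0.73 for Snhg15 and -1.83 for Wnt10b, and none of these 9 stayed below 0.05 with the replicate block (0.0546 to 0.0647). Endou and Gm10499 were below the read filter at 12 h, and their differences arose in naive cells, where Endou was at 0.154 ± 0.0783 FPKM in WT cells and at 1.68 ± 0.302 FPKM in those of let-7Tg (SD, n = 3).

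Against day 5 CTLs the genes of mitosis and DNA replication had lower values at 12 h, with -1.60 for Aurkb, -1.84 for Bub1, -1.64 for Ccna2, -1.89 for Clspn, -1.20 for Kif18b, -1.41 for Kif2c, -1.83 for Rrm2, -1.81 for Top2a and -1.02 for Cdkn2d, an inhibitor. Globin genes had -4.68 (Hba-a1) and -4.46 (Hba-a2). Erythroid markers were already lower in naive let-7Tg cells, with a median of -3.71 and 3 genes downregulated, where 84 of 13277 tested genes were. At day 5 their median was -0.06, and the globin gene Hbb-bt was at 0 to 0.304 FPKM in CTLs of both genotypes. Other lower values were -1.05 for Kcnh4, -1.19 for Lrrc32, -1.50 for Ms4a6d and -1.44 for Oas3. Ecm1 (-2.89), Fsd1l (-1.92) and H1fx (-1.86) differed because of day 5, where they were higher in let-7Tg by 3.31, 1.99 and 1.89, and Fsd1l and H1fx were below the filter at 12 h. Higher values at 12 h were 1.02 for Dnase2a, 1.43 for Esd, 1.63 for Traj5, 0.89 for Jarid2, 1.46 for Glrp1 and 1.72 for Gpt2. Jarid2, Glrp1 and Gpt2 were lower in let-7Tg at day 5 by 0.61, 1.52 and 1.38 and were not called at 12 h, where Glrp1 was below the filter.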

How the results depend on the processing

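The 396 calls at 12 h kept their direction in every alternative in which they could be tested. The genotypes did not overlap in any of the 396, so a direction could hardly turn, and this adds no support. The number of calls was 79 with no filter on low reads (of 21559 genes tested), 38 with the 6 libraries alone, 242 with the replicate block and 5 to 697 leaving out 1 library. Alternatives added after seeing the data gave 1466 (replicate block with only the 6 libraries) and 137 (without replicate 2 of both genotypes). The 80 calls among list members became 15 with no filter, 122 with a filter of 50 reads, 12 with the 6 libraries, 289 with the block of 6, 47 without replicate 2 and 1 to 116 leaving out 1 library. The 90 downregulated genes with a seed match became 18, 54 with the replicate block, 6 with the 6 libraries, 246 with the block of 6, 36 without replicate 2, 38 with UTRs of at least 2000 bases and 1 to 161 leaving out 1 library. The 19 calls near Col1a1 became 8 within 5 Mb. The 20 differences from naive cells became 10 with no filter, 5 with a pseudocount of 0.1, 0 with the replicate block (1443 at an unadjusted p under 0.05), 3 by voom, 11 without replicate 2 and 3 to 73 leaving out 1 library. The 91 differences from day 5 became 50, 258 with the replicate block, 1 by voom, 39 without replicate 2 and 4 to 100 leaving out 1 library. Of the 396, the lowest number came without WT replicate 3 and the highest without let-7Tg replicate 1, and the cause was not tested. Of 103 named called genes 75 stayed called with the replicate block and 103 with that of 6 libraries. Some list medians changed sign. That of gamma delta T cell markers went from 0.04 to -0.05 with the block of 6. Leaving out 1 library, that of myeloid markers ranged from -0.34 to 0.05, of NK markers from -0.00 to 0.33, of stromal markers from -0.05 to 0.43 and of cytokine receptors from -0.15 to 0.04, and that of NK markers was -0.57 with the filter of 50 reads and -0.03 without replicate 2 of both. At these depths genes under about 0.3 FPKM rest on few reads.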

Other observations

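Some genes outside the lists and the rule for named genes stood out, and they are given as values after these were seen. The noncoding gene Gt(ROSA)26Sor (chr6:113067428-113077333), a locus often used for transgenes, was at 21, 24.1 and 24.5 FPKM in WT and 15.3, 1.06 and 12.1 FPKM in let-7Tg replicates 1 to 3, and at 13.2, 15.2 and 21.1 FPKM in lin28Tg. All let-7Tg values were below the WT values, and the library with the lowest level, let-7Tg replicate 2, had the highest Col1a1 (62.8 FPKM). The gene was not called (-1.82 ± 0.72, adjusted p = 0.183). In naive let-7Tg cells it was at 7.82, 11.3 and 0.486 FPKM against 18.6 to 21.3 FPKM in WT, and in CTLs at 5.85, 8.69 and 2.52 FPKM against 7.75 to 11.5 FPKM. 1700030F04Rik (chr6:117646693-117751769) was at 0 in all 9 WT libraries of the series and at 1.74, 6.08 and 4.89 FPKM in let-7Tg at 12 h (adjusted p = 0.0188). In let-7Tg it was at 0.890, 0 and 2.13 FPKM in naive cells and at 3.73, 0 and 4.59 FPKM in CTLs. In lin28Tg at 12 h it was at 1.13, 0.116 and 0 FPKM. Within 10 Mb of Gt(ROSA)26Sor 2 of 92 tested genes were called (2.17%), and on the rest of chromosome 6 29 of 485 (5.98%), 19 of them upregulated. Over all tested genes 3.24% were called and 1.36% were upregulated. In lin28Tg over WT 10.9% were called within 10 Mb and 11.1% on the rest of chromosome 6, against 8.53% on chromosomes other than 11. These shares were not tested against each other.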
